A study of Mus musculus with 13 samples.

Results

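Klrc1, Klrc2, Klrd1, Klrk1 and Klre1 encode a small group of lectin-like receptors, CD94 and its NKG2 partners, that are best known from natural killer (NK) cells and are also carried by many T cells. These 5 genes were taken by name from a count table of 21084 genes, in all 13 libraries, and they were picked because Klrc1 and Klrc2 were high in one of the 4 groups, UC7-PBS, and lower with interferon alpha (IFNa). All 5 passed the filter on low counts, which left 15835 genes for testing.

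The libraries were bulk RNA sequencing of gamma delta intraepithelial lymphocytes, T cells that lie within the gut epithelium, sorted from the small intestine of WT mice. There were 3 UC7-IFNa, 3 UC7-PBS, 4 IgG-IFNa and 3 IgG-PBS libraries. UC7 stands for UC7-13D5, an antibody to the gamma delta T cell receptor, and IgG for Armenian hamster IgG, its control antibody. Mice of every group received 200 µg of one of these antibodies intraperitoneally, 48 and 24 h before the cells were isolated per the labels' protocols. The series' design text gives the same hours as alternatives and counts them from the later injection, so the schedule is not certain. IFNa (1 µg) or phosphate-buffered saline (PBS) was injected intravenously 5 h before isolation. The comparisons address what engaging the receptor and what a short exposure to IFNa do to these cells, alone and together. The age and sex of the mice, the sort gates, and whether a library came from 1 animal or from a pool are not given in the sources used here, so p-values measure the spread between these libraries only.

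CD94, encoded by Klrd1, pairs with NKG2A, encoded by Klrc1, or with NKG2C, encoded by Klrc2. Both pairs bind Qa-1b, a non-classical class I molecule encoded by H2-T23, which mostly displays a peptide cut from the leader of other class I molecules. The NKG2A pair is inhibitory and acts through tyrosine phosphatases such as SHP-1 (Ptpn6), and the NKG2C pair is activating and signals through the adaptor DAP12 (Tyrobp). NKG2D, encoded by Klrk1, does not use CD94: it pairs with itself, binds stress-induced ligands of the RAE-1, H60 and MULT1 families, and signals through DAP10 (Hcst) and, in mice, DAP12. Klre1 encodes a further receptor of this family in rodents, which pairs with receptors encoded by Klri1 and Klri2.

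The 5 genes lie next to each other on chromosome 6 of build mm39, per the count table. Klre1 (ENSMUSG00000050241) spans chr6:129554868-129562791 on the plus strand, followed by Klrd1 (ENSMUSG00000030165) at chr6:129568745-129575739 on the plus strand. Klrk1 (ENSMUSG00000030149) at chr6:129587286-129600828, Klrc2 (ENSMUSG00000052736) at chr6:129624459-129637653 and Klrc1 (ENSMUSG00000030167) at chr6:129642978-129655937 are read from the minus strand. All are annotated as protein-coding.

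Klrc1 and Klrc2 are the members that were high in UC7-PBS. The stretch around the start of each is therefore shown, from 250 bases before to 50 bases after it. The sequences are from RefSeq, build GRCm38.p6, and run 5′ to 3′ along the gene, the minus strand, at chr6:129678924-129679223 for Klrc1 and chr6:129660547-129660846 for Klrc2. Klrc2 has a further annotated start in that table, not shown. Capitals mark matches to the letters ACCACA, bound by RUNX factors, and TGANTCA, bound by AP-1 factors.
Klrc1: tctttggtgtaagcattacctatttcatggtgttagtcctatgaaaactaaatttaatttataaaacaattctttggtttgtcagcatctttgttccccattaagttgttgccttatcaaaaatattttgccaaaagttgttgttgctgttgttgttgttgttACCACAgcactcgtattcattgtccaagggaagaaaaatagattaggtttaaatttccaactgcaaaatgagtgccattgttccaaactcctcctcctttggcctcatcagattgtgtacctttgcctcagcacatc
Klrc2: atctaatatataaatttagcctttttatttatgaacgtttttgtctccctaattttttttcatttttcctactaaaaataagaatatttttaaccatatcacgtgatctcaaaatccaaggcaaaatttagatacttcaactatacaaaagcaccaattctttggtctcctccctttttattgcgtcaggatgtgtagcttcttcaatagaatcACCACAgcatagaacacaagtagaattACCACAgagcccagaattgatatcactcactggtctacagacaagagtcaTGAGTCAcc
The Klrc1 window held 1 ACCACA match, which begins at base 164 of 300. The Klrc2 window held 2 ACCACA matches, at bases 215 and 242, and 1 TGANTCA match at base 292, with no overlap between them. Of the windows not shown, that of Klrk1 held ACCACA at base 122 and TGANTCA at base 268. A Klre1 window held ACCACA at base 22, so these letters were not particular to Klrc1 and Klrc2. Both strands were searched, and the motifs were picked with these letters in view. Of 32851 promoter windows of this length in the table, 16.8% held ACCACA and 7.81% held TGANTCA. The letters TTCNNNGAA (STAT factors; 8.30% of all windows), GAAANNGAAA (interferon-stimulated response element; 3.44%) and GGTGTGA (T-box factors; 3.98%) had no match in any window of the 4 members found in the table, Klrc1, Klrc2, Klrk1 and Klre1. These are descriptions of letters in short windows, not of binding sites. The Klrc1 and Klrc2 windows shown were identical at 51.1% of aligned bases, within a range of 49.8% to 58.5% over 13 pairs of windows from different members. The top of that range, 58.5%, was Klrc1 with the further Klrc2 start.

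The transcripts of Klrc1 and Klrc2 are far more alike than these windows. The best local alignment between their coding transcripts in GENCODE M21 was identical at 92.5% of 1782 aligned bases. Over all coding transcripts of each gene, 24.6% of the distinct 75-base words of Klrc1, or 15.1% of those of Klrc2, also occur in the other gene. Reads from such stretches cannot be assigned to either gene, the deposited counts of both genes are estimates that are not whole numbers, and Klrc2 had only 12.3 to 140.7 estimated counts per library. The split between Klrc1 and Klrc2 is therefore uncertain. Klrd1, Klrk1 and Klre1 shared no 75-base word with either gene. A further copy is Klrc3, whose best alignment with Klrc2 is identical at 96.2% of 715 aligned bases. The count table has no gene of that name, so Klrc3 was not analysed here.

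Levels are given as CPM, each count divided by its library's total after scaling with the trimmed mean of M values (TMM); sums of marker and sex-linked transcripts use the plain totals. Library totals ranged from 19867201 to 26895876 estimated counts. For the labelled cell type, 11 marker genes of gamma delta intraepithelial lymphocytes were read, all detected, which summed to 45351 to 66263 CPM per library. Most of this sum was Gzma, at 22887 to 40986 CPM, and Gzmb, at 10692 to 14221 CPM. Trdc was 163 to 211 CPM, Trgc1 1256 to 2096.5 CPM and Trgc2 802 to 1087 CPM. On the list for alpha beta T cells, Trac was 166 to 416 CPM, Trbc1 544 to 839 CPM and Trbc2 598 to 1204 CPM. The sum of the 11 markers by itself therefore does not settle the share of gamma delta cells. UC7-IFNa library 2 stood apart from the rest on the first principal component, which held 25.4% of the variance, with a score of 108 against −26.5 to 11.1 for the other 12 libraries. The sex-linked transcripts followed the antibody: Xist was at most 1.08 CPM in the 6 UC7 libraries and at least 23.4 CPM in the 7 IgG libraries, and the summed Y-linked transcripts were 132 to 329 CPM in UC7 libraries and at most 0.310 CPM in IgG-PBS libraries. The IgG-IFNa group was mixed, with 2.15 and 1.67 CPM of Y-linked transcripts in libraries 1 and 2, and 210 and 320 CPM in libraries 3 and 4. The antibody and the sex-linked difference cannot be told apart between UC7-PBS and IgG-PBS. In these bulk libraries a change in the share of cells that carry a receptor and a change in the transcript per cell cannot be told apart either.

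Klrc1, the inhibitory NKG2A chain, stood highest in UC7-PBS. It measured 15.9, 11.04 and 16.2 CPM in UC7-IFNa libraries 1 to 3, against 67.8, 64.0 and 23.4 CPM in UC7-PBS libraries 1 to 3. In IgG-IFNa libraries 1 to 4 it measured 13.8, 12.8, 9.52 and 6.24 CPM, against 11.4, 15.3 and 21.3 CPM in IgG-PBS libraries 1 to 3. Every UC7-PBS library lay above the other 10, but library 3 exceeded the highest IgG-PBS library only narrowly, and the coefficient of variation within UC7-PBS was 47.5%. The other 3 groups overlapped one another.

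Klrc2, the activating NKG2C chain, had the same high group at a far lower level. It measured 0.709, 0.697 and 1.32 CPM in UC7-IFNa libraries 1 to 3, against 4.58, 4.66 and 5.35 CPM in UC7-PBS libraries 1 to 3. Under IgG, it measured 0.791, 0.482, 1.30 and 0.498 CPM in IgG-IFNa libraries 1 to 4, against 1.88, 1.93 and 1.25 CPM in IgG-PBS libraries 1 to 3. The 3 UC7-PBS libraries again lay above all others, here with little spread among them, and UC7-PBS library 3, the lowest of its group for Klrc1, was the highest for Klrc2. The remaining 3 groups overlapped one another.

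Klrd1, the shared CD94 partner, did not have this pattern. It measured 508, 498 and 439 CPM in UC7-IFNa libraries 1 to 3, against 453, 859 and 562 CPM in UC7-PBS libraries 1 to 3. With the control antibody it measured 847, 570, 745 and 678 CPM in IgG-IFNa libraries 1 to 4, against 631, 681 and 630 CPM in IgG-PBS libraries 1 to 3. UC7-PBS overlapped both groups it is compared with, while the 3 UC7-IFNa libraries all lay below the 4 IgG-IFNa libraries.

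Klrk1, the NKG2D gene, measured 18.7, 15.2 and 17.0 CPM in UC7-IFNa libraries 1 to 3, against 10.4, 17.45 and 11.7 CPM in UC7-PBS libraries 1 to 3. Its IgG values were 18.5, 13.1, 10.03 and 8.08 CPM in IgG-IFNa libraries 1 to 4, against 7.54, 11.4 and 13.6 CPM in IgG-PBS libraries 1 to 3. The groups overlapped in each of the 4 comparisons.

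Klre1 measured 29.8, 31.8 and 19.1 CPM in UC7-IFNa libraries 1 to 3, against 13.7, 23.01 and 27.1 CPM in UC7-PBS libraries 1 to 3. In IgG-IFNa libraries 1 to 4 it measured 24.8, 27.9, 23.5 and 27.6 CPM, against 20.5, 17.5 and 23.5 CPM in IgG-PBS libraries 1 to 3. The groups overlapped in each of the 4 comparisons here too, IgG-IFNa and IgG-PBS only just.

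**Figure D1:**
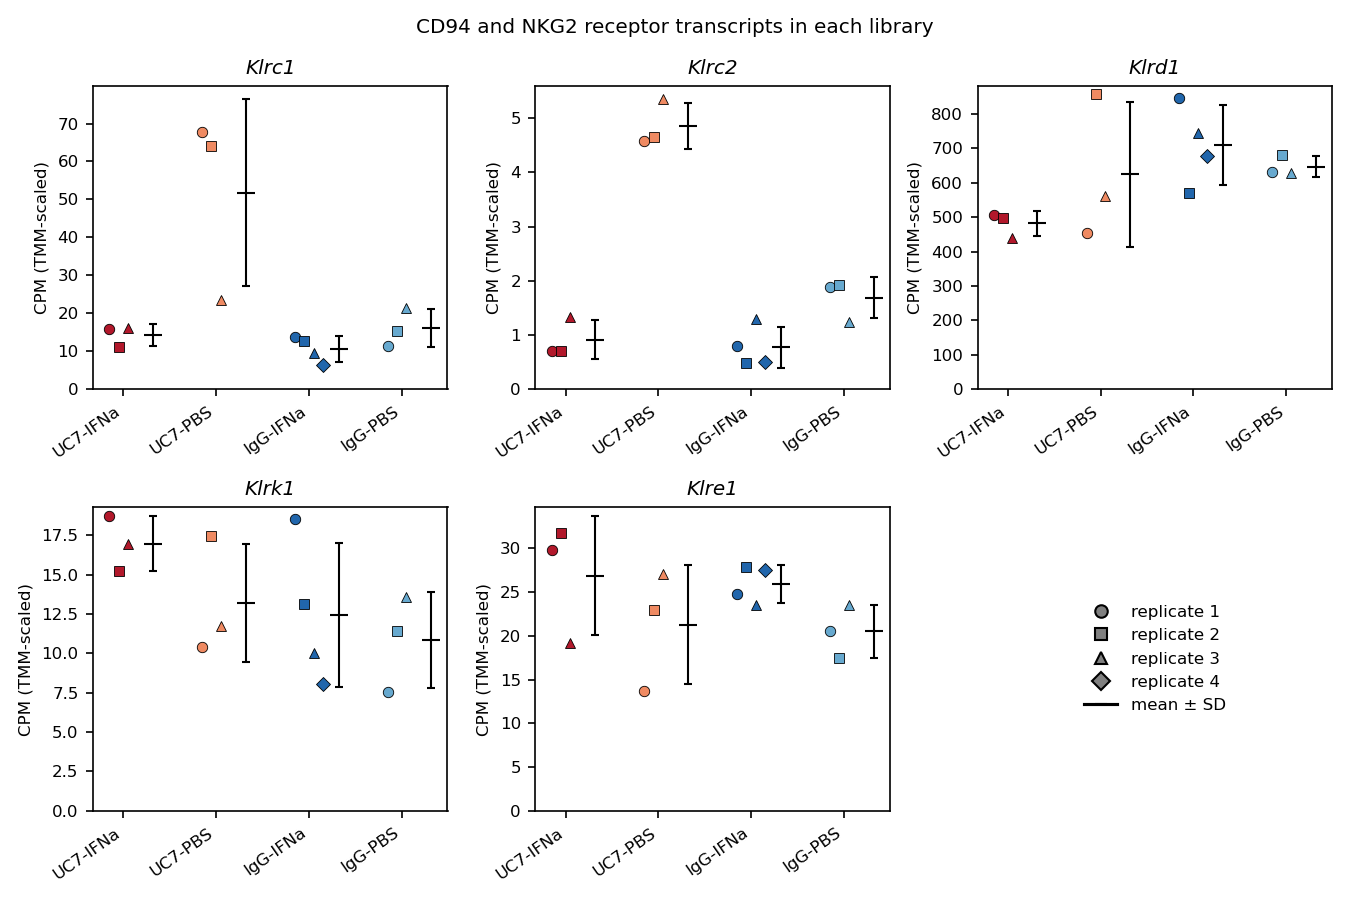
TMM-scaled CPM (y axis, from 0) of the 5 receptor genes in each library of the 4 groups (x axis), with the mean ± SD beside the points. The 3 UC7-PBS libraries lie above all others for Klrc1 (lowest 23.4 CPM) and Klrc2 (lowest 4.58 CPM), and the groups overlap in all 4 comparisons of Klrk1 and Klre1 and in 3 of those of Klrd1.

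Divided by the length of the longest coding transcript, the levels were ordered in the same way at the ends in every group. Klrd1 was highest, with a mean of 524 CPM per kb in UC7-IFNa, 679 in UC7-PBS, 773 CPM per kb in IgG-IFNa and 704 in IgG-PBS, and Klrc2 was lowest, with 0.323, 1.73, 0.273 and 0.600 CPM per kb in the same groups. Klrc1 averaged 7.24 CPM per kb in UC7-IFNa, 26.1 in UC7-PBS, 5.33 CPM per kb in IgG-IFNa and 8.08 in IgG-PBS. Klre1 averaged 20.8, 16.4, 20.04 and 15.9 CPM per kb, and Klrk1 5.31, 4.13, 3.89 and 3.396 CPM per kb, in those groups. The order of Klrc1, Klre1 and Klrk1 is not settled, since with the shortest coding transcripts Klrc1 exceeded Klre1 in IgG-PBS as well, at 23.7 against 15.9 CPM per kb, and narrowly in UC7-IFNa, at 21.2 against 20.8 CPM per kb.

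The transcript of the CD94 partner exceeded that of NKG2A in each of the 13 libraries. Klrc1 CPM amounted to 3.13%, 2.21% and 3.68% of Klrd1 CPM in UC7-IFNa libraries 1 to 3, against 14.99%, 7.45% and 4.17% in UC7-PBS libraries 1 to 3. The ratio was 1.62%, 2.24%, 1.28% and 0.919% in IgG-IFNa libraries 1 to 4, against 1.81%, 2.25% and 3.39% in IgG-PBS libraries 1 to 3. Set against Trdc, the constant segment of the delta chain, Klrc1 amounted to 8.64%, 5.39% and 8.75% in UC7-IFNa libraries, against 32.2%, 31.3% and 11.8% in UC7-PBS libraries. All UC7-PBS libraries were above all UC7-IFNa libraries on this ratio too.

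In UC7-IFNa against UC7-PBS, Klrc1 had a log2 fold change of −1.85 (SE 0.37), which is 3.60-fold lower, and Klrc2 one of −2.41 (SE 0.42), which is 5.31-fold lower. For both genes the groups did not overlap, which is a description, since the share of all genes without overlap was not computed. The group means were 14.4 ± 2.89 CPM in UC7-IFNa and 51.8 ± 24.6 CPM in UC7-PBS for Klrc1, and 0.909 ± 0.357 and 4.86 ± 0.421 CPM in these groups for Klrc2 (SD, n = 3 each). The other 3 members had log2 fold changes of −0.37 (Klrd1, SE 0.21), 0.36 (Klrk1, SE 0.30) and 0.34 (Klre1, SE 0.24), and their groups overlapped. The members were chosen on this contrast, so the values are a description with no test. Over all 15835 genes, 0.335% were called higher and 0.0253% lower at an adjusted p under 0.05 (edgeR's quasi-likelihood test, Benjamini-Hochberg), and nothing about the members is read from these shares. The share of mitochondrial transcripts was 0.611%, 1.23% and 0.618% in UC7-IFNa libraries 1 to 3 and 1.47%, 1.24% and 1.07% in UC7-PBS libraries 1 to 3. It was 0.582% to 0.801% in IgG-IFNa and 0.866% to 1.73% in IgG-PBS, and its part in the IFNa comparisons was not tested. Leaving out each library in turn gave −2.20 to −1.61 for Klrc1 and −2.78 to −2.25 for Klrc2. Without UC7-IFNa library 2, which stood apart, the values were −1.70 for Klrc1 and −2.27 for Klrc2.

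In UC7-PBS against IgG-PBS, Klrc1 had a log2 fold change of 1.69 (SE 0.37) and Klrc2 one of 1.53 (SE 0.39), again with no overlap between the groups. Mean levels were 51.8 ± 24.6 CPM in UC7-PBS and 16.03 ± 4.99 CPM in IgG-PBS for Klrc1, and 4.86 ± 0.421 and 1.69 ± 0.381 CPM in these groups for Klrc2 (SD, n = 3 each). Klrd1 (−0.05, SE 0.20), Klrk1 (0.28, SE 0.30) and Klre1 (0.05, SE 0.24) had log2 fold changes near 0. These too are descriptions, because the UC7-PBS libraries served to choose the members. Over all genes 0% were called higher and 0.00632% lower, which is 1 gene, while 791 genes had an unadjusted p under 0.05 and DESeq2 called 69. Between these 2 groups sex-linked transcripts differ throughout: with the Y-linked share of each library as a covariate, which only the mixed IgG-IFNa libraries can inform, the log2 fold change of Klrc1 was 2.67, that of Klrc2 1.101 and that of Klrk1 1.27. The 2 comparisons share the UC7-PBS libraries, so the opposite signs of the Klrc1 and Klrc2 values in them are not independent of each other.

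Marker genes of other cell types were read beside these values. Of 10 markers of NK cells and group 1 innate lymphoid cells 7 were analysed, and they summed to 143 to 188 CPM in UC7-IFNa, 135 to 222 CPM in UC7-PBS, 178 to 212 CPM in IgG-IFNa and 192 to 229 CPM in IgG-PBS. Ncr1, which encodes NKp46 and marks these cells, was at most 0.433 CPM in any library. Irf8, which dendritic cells and some T cells also express, made up most of the sum in every library. Without Irf8 the sum was 53.9, 24.1 and 38.2 CPM in UC7-IFNa libraries 1 to 3, against 83.6, 45.9 and 79.5 CPM in UC7-PBS libraries 1 to 3. It was 41.0, 41.5, 47.2 and 57.7 CPM in IgG-IFNa libraries 1 to 4, against 52.5, 67.9 and 52.9 CPM in IgG-PBS libraries 1 to 3. UC7-PBS libraries 1 and 3 were the highest of the 13 on this sum, and UC7-PBS 2 lay within the range of the other groups, so it overlapped between UC7-PBS and each group it is compared with. Of its genes, Klra7, a Ly49 receptor named after its values were seen, measured 17.2, 2.77 and 5.53 CPM in UC7-IFNa libraries 1 to 3, against 13.95, 2.97 and 34.8 CPM in UC7-PBS libraries 1 to 3. UC7-PBS 2, with 64.0 CPM of Klrc1, was thus low in Klra7. Klrb1c measured 15.6, 13.4 and 16.4 CPM in UC7-IFNa libraries and 45.1, 22.1 and 23.9 CPM in UC7-PBS libraries by plain totals, with no overlap, but was 27.3 to 41.1 CPM in IgG-PBS. The 8 alpha beta T cell markers summed to 1709 to 2367 CPM in UC7-IFNa, 1536 to 1818 CPM in UC7-PBS, 1519 to 2141 CPM in IgG-IFNa and 1544 to 1944 CPM in IgG-PBS. The sums of epithelial and of myeloid markers were higher in UC7-PBS than in IgG-PBS. The 10 epithelial markers summed to 332 to 591 CPM in UC7-IFNa, 392 to 494 CPM in UC7-PBS, 327 to 477 CPM in IgG-IFNa and 185 to 300.5 CPM in IgG-PBS. The 8 myeloid markers summed to 115 to 171 CPM in UC7-IFNa, 160 to 214 CPM in UC7-PBS, 111 to 171 CPM in IgG-IFNa and 132 to 139 CPM in IgG-PBS. Itgax made up most of the myeloid sum, with means of 105, 154, 116 and 113 CPM in these groups. Each of the other myeloid markers averaged at most 12.1 CPM in any group. Of 8 markers of B and plasma cells, 5 were analysed, and they summed to 100.5 to 248 CPM in UC7-IFNa, 93.5 to 169 CPM in UC7-PBS, 84.5 to 138 CPM in IgG-IFNa and 114 to 137 CPM in IgG-PBS. The part of these cells in the Klrc1 and Klrc2 values was not tested.

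The comparisons without UC7-PBS libraries could be tested for the members. In UC7-IFNa against IgG-IFNa, 0 of the 5 passed by edgeR or by DESeq2, where edgeR called 0.0379% of all genes higher and 0.0379% lower. By edgeR 1 member, Klrd1, had an unadjusted p under 0.05, as did 1138 of all 15835 genes. Klrd1 averaged 482 ± 37.1 CPM in UC7-IFNa (SD, n = 3) and 710 ± 116 CPM in IgG-IFNa (SD, n = 4). Its log2 fold change was −0.56 (SE 0.19, 95% interval −0.97 to −0.15), and edgeR gave an unadjusted p of 0.0111 and an adjusted p of 0.485. All 3 UC7-IFNa libraries were below all 4 IgG-IFNa libraries, but the share of all genes that separate in this way was not computed. Klrc1 was 14.4 ± 2.89 CPM in UC7-IFNa and 10.6 ± 3.42 CPM in IgG-IFNa, a log2 fold change of 0.44 (95% interval −0.28 to 1.17, edgeR adjusted p = 0.774). For Klrc2 it was 0.25 (95% interval −0.60 to 1.096, edgeR adjusted p = 0.882), for Klrk1 0.45 (−0.14 to 1.04, 0.737) and for Klre1 0.05 (−0.42 to 0.53, 0.963). The upper bounds of Klrc1 and Klrc2 are over 1 on the log2 scale, so the data do not show that these genes were alike with the 2 antibodies under IFNa. The log2 fold change of Klre1 was −0.10 without UC7-IFNa 2 and −0.04 without UC7-IFNa 1, and that of Klrc2 was −0.13 without UC7-IFNa 3, so their signs rest on those libraries. Klrc1 and Klrk1 moved with the IgG-IFNa libraries used, which differ in sex-linked transcripts and may differ otherwise. The cause was not tested for either gene. Without IgG-IFNa libraries 1 and 2 their log2 fold changes were 0.87 and 0.90, without libraries 3 and 4 they were 0.11 and 0.10, and with the Y-linked share as a covariate they were 1.06 and 1.07. Klrc2 was 0.02 without libraries 1 and 2, 0.52 without libraries 3 and 4 and 0.01 with the covariate. None of these passed by edgeR, at adjusted p-values of 0.377 to 0.998.

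In IgG-IFNa against IgG-PBS, 0 of the 5 members passed by edgeR or by DESeq2, where edgeR called 0.619% of all genes higher and 0.208% lower. By edgeR 1 member, Klrc2, had an unadjusted p under 0.05, as did 1723 of all 15835 genes. Klrc2 had the largest log2 fold change of the 5, at 0.769 ± 0.384 CPM in IgG-IFNa (SD, n = 4) and 1.69 ± 0.381 CPM in IgG-PBS (SD, n = 3). Its log2 fold change was −1.13 (SE 0.38, 95% interval −1.94 to −0.32), with an unadjusted p of 0.00918 and an adjusted p of 0.238 by edgeR. The groups overlapped, since IgG-IFNa library 3 lay above IgG-PBS library 3. Klrc1 was 10.6 ± 3.42 CPM in IgG-IFNa and 16.03 ± 4.99 CPM in IgG-PBS, a log2 fold change of −0.60 (95% interval −1.32 to 0.12, edgeR adjusted p = 0.569). Klrd1 had 0.13 (−0.27 to 0.54, adjusted p = 0.892), Klrk1 0.20 (−0.40 to 0.79, 0.891) and Klre1 0.34 (−0.14 to 0.81, 0.653). Values also moved with the IgG-IFNa libraries used, which differ in sex-linked transcripts, and the cause was not tested. With libraries 1 and 2 left out the log2 fold change of Klrc1 was −1.02, that of Klrc2 −0.90 and that of Klrk1 −0.26. With libraries 3 and 4 left out they were −0.27, −1.40 and 0.54, and with the Y-linked share as a covariate −0.24, −1.32 and 0.56. Klrk1 also turned sign without IgG-IFNa 1 (−0.0595) and without IgG-PBS 1 (−0.0078).

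**Figure D2:**
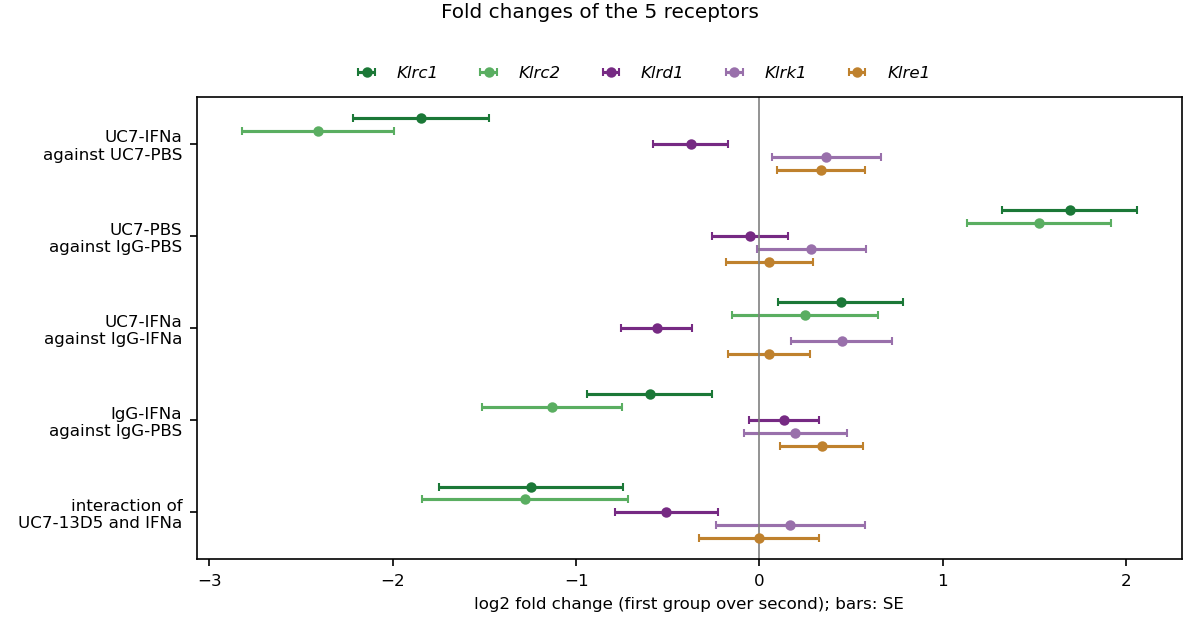
Log2 fold changes (x axis, first group over second; bars are SE) of the 5 receptors in the 4 comparisons and the interaction, from 1 edgeR fit over 13 libraries. Klrc1 and Klrc2 lie at −1.85 and −2.41 in UC7-IFNa against UC7-PBS and at 1.69 and 1.53 in UC7-PBS against IgG-PBS, away from the other 3 genes.

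The difference between the IFNa contrasts under the 2 antibodies, the interaction, had a log2 value of −1.25 (SE 0.50) for Klrc1 and −1.28 (SE 0.56) for Klrc2. It was −0.51 (SE 0.28) for Klrd1, 0.17 (SE 0.41) for Klrk1 and −0.0021 (SE 0.33) for Klre1. Without UC7-PBS 2, the highest library for Klrd1, the Klrd1 value was −0.21, and its log2 fold change in UC7-IFNa against UC7-PBS was −0.07. Without IgG-IFNa libraries 1 and 2 the interaction was −0.82 for Klrc1 and 0.63 for Klrk1, and without libraries 3 and 4 it was −1.58 and −0.18. It holds the UC7-PBS libraries that chose the members, so no test is given for them. No gene passed this contrast across the whole table by edgeR, with 502 genes at an unadjusted p under 0.05, while DESeq2 called 5.

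Klrc1 and Klrc2 were high in the same group, but not in the same proportion in each library. Klrc2 CPM amounted to 4.52%, 6.46% and 8.21% of Klrc1 CPM in UC7-IFNa libraries 1 to 3, against 6.76%, 7.27% and 22.8% in UC7-PBS libraries 1 to 3. In IgG-IFNa libraries 1 to 4 the ratio was 5.76%, 3.81%, 13.8% and 8.15%, against 16.6%, 12.4% and 5.89% in IgG-PBS libraries 1 to 3. UC7-PBS library 3 was therefore the one with the largest share of Klrc2, and the groups overlapped. Over the 13 libraries Pearson's r between the log2 levels of the 2 genes was 0.78 and Spearman's rho 0.68. With the group means removed r was −0.07, so the relation lay between the groups. Of the other pairs, Klrc2 and Klre1 had an r of −0.57, Klrc1 and Klre1 one of −0.51 and Klrc1 and Klrd1 one of −0.09. Klrc1 and Klrk1 had an r of 0.29, and Klrd1 and Klrk1 one of −0.04. With the group means removed, r was 0.65 for Klrc1 and Klrk1 and 0.52 for Klrd1 and Klrk1, the largest among the members. It was then −0.47 for Klrc2 and Klre1 and −0.44 for Klrc1 and Klre1. These are descriptions over libraries that share groups.

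**Figure D3:**
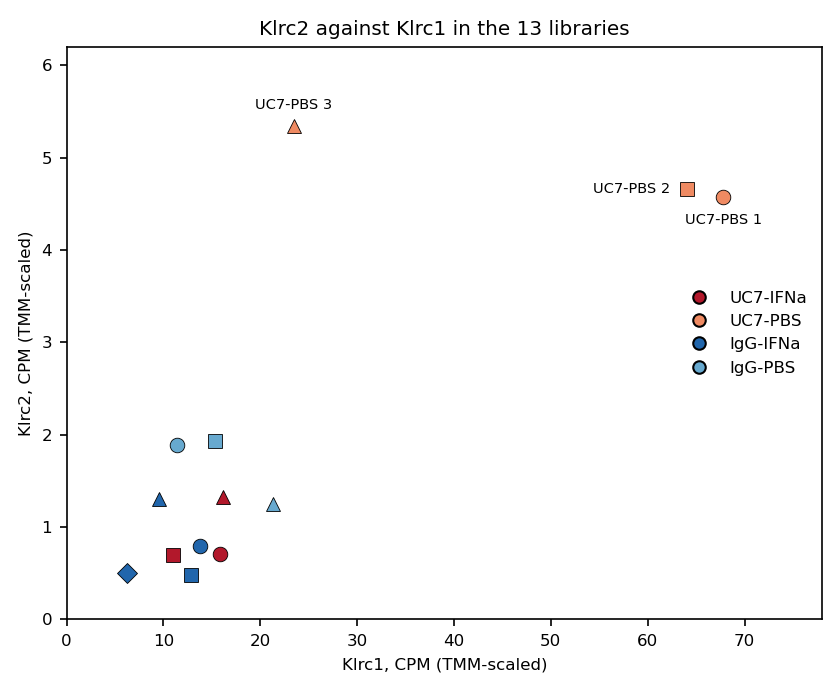
Klrc2 (y axis) against Klrc1 (x axis), both in TMM-scaled CPM, with 1 point per library, coloured by group and shaped by replicate number (circle, square, triangle and diamond for 1 to 4). The 3 UC7-PBS libraries lie apart, libraries 1 and 2 at 67.8 and 64.0 CPM of Klrc1 and library 3 at 23.4 CPM of Klrc1 but with the highest Klrc2, 5.35 CPM.

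Genes were ranked by likeness where their log2 CPM averaged 3 or more. Those whose log2 levels over the 13 libraries were most like Klrc1 were Dnajb14 (r = 0.90, rho = 0.96), Itga6 (r = 0.87, rho = 0.74) and Rnf139 (r = 0.86, rho = 0.92). Without UC7-PBS libraries 1 and 2, the farthest from the median of Klrc1, r was 0.91 for Dnajb14, 0.62 for Itga6 and 0.95 for Rnf139. With the group means removed it was 0.75, 0.75 and 0.73 for these genes. Dnajb14 encodes a co-chaperone of the endoplasmic reticulum, Rnf139 a ubiquitin ligase of the same membrane, and Itga6 the integrin alpha 6 chain. The level of Dnajb14 averaged 8.33 CPM (UC7-IFNa), 10.8 CPM (UC7-PBS), 6.73 CPM (IgG-IFNa) and 7.78 CPM (IgG-PBS), so its range was much narrower than that of Klrc1.

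For Klrc2 the most alike were Afmid (r = 0.82, rho = 0.78), Arpc5 (r = 0.80, rho = 0.65), Il10rb (r = 0.80, rho = 0.70) and Itga6 (r = 0.80, rho = 0.76). Afmid encodes kynurenine formamidase, Arpc5 a subunit of the actin-nucleating Arp2/3 complex, and Il10rb a chain of the interleukin 10 receptor. Without UC7-PBS libraries 2 and 3, the farthest for Klrc2, r was 0.70 for Afmid, 0.76 for Arpc5, 0.66 for Il10rb and 0.91 for Itga6. With the group means removed it was −0.18 for Afmid, −0.12 for Il10rb and 0.16 for Itga6, so their likeness to Klrc2 lay between the groups, and it was 0.51 for Arpc5. Itga6, Polr3k and Rfx7 stood among the 10 most alike genes of both Klrc1 and Klrc2. Itga6 averaged 8.66 CPM in UC7-IFNa, 13.1 in UC7-PBS, 8.15 CPM in IgG-IFNa and 10.9 in IgG-PBS.

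On the ligand side, H2-T23, which encodes Qa-1b, rose with IFNa under both antibodies. It measured 1559, 1750 and 1494 CPM in UC7-IFNa libraries 1 to 3, against 839, 966 and 973 CPM in UC7-PBS libraries 1 to 3. In IgG-IFNa libraries 1 to 4 it measured 1377, 1299.8, 1583 and 1308 CPM, against 865, 843 and 974.5 CPM in IgG-PBS libraries 1 to 3. Neither pair of groups overlapped. The log2 fold change was 0.79 (SE 0.14, edgeR adjusted p = 0.0185) in UC7-IFNa against UC7-PBS and 0.64 (SE 0.13, edgeR adjusted p = 0.0360) in IgG-IFNa against IgG-PBS. The interaction was 0.15 (SE 0.19, edgeR adjusted p = 1.00). H2-T23 thus stood high in both IFNa groups, whereas Klrc1 and Klrc2 stood high in UC7-PBS. Each H2-T23 call was lost with some libraries left out. In the UC7 pair it did not pass without UC7-IFNa 1 or without any of the UC7-PBS libraries, at adjusted p-values of 0.0503 to 0.163, and in the IgG pair without any library of its own groups, at 0.0524 to 0.169, or without UC7-PBS 2 or 3, at 0.0503 and 0.0624. With the Y-linked covariate the IgG pair had 0.60 (edgeR adjusted p = 0.250), and it did not pass without IgG-IFNa 1 and 2 (0.0763) or 3 and 4 (0.355) either, while the UC7 pair passed in all 3 of these fits. Of the 10 tested genes of the Qa-1 ligand and its peptide supply, with class I heavy chains, the TAP transporter and immunoproteasome subunits, H2-T23 was the only one that passed in either IFNa comparison. By edgeR, 6 of the 10 had an unadjusted p under 0.05 in UC7-IFNa against UC7-PBS and 1 in IgG-IFNa against IgG-PBS. Of all 15835 genes, 1202 and 1723 did so in these comparisons. The median log2 fold change of the 10 genes was 0.40 in UC7-IFNa against UC7-PBS and 0.17 in IgG-IFNa against IgG-PBS, beside 0.022 and −0.012 over all tested genes.

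The adaptors Tyrobp and Hcst and the phosphatase gene Ptpn6 did not pass in any of the 4 comparisons. Tyrobp averaged 1064 ± 584 CPM in UC7-IFNa, 939 ± 269 in UC7-PBS, 980 ± 187 CPM in IgG-IFNa and 791 ± 76.8 in IgG-PBS, and its smallest edgeR adjusted p was 0.793. Its UC7-IFNa mean was drawn up by library 2 at 1738 CPM, against 751 and 703 CPM in libraries 1 and 3. Hcst averaged 301 ± 226, 234 ± 53.9, 163 ± 33.1 and 174 ± 3.07 CPM in those groups (smallest adjusted p = 0.546), and its UC7-IFNa mean was drawn up by library 2 at 562 CPM. Ptpn6 averaged 625 ± 157, 469 ± 189, 681 ± 156 and 697 ± 358 CPM (smallest adjusted p = 0.849). The errors are SD over 3 libraries, or 4 in IgG-IFNa. Of the 22 adaptor and signalling genes, 1 passed in 1 comparison: Sh2d2a, a T cell adaptor that binds Lck, rose in IgG-IFNa, at 2477 ± 302 CPM, against 1391 ± 195 CPM in IgG-PBS. Its log2 fold change was 0.83 (SE 0.15, edgeR adjusted p = 0.0194). The call was lost without IgG-IFNa 3 or 4 or any IgG-PBS library, at adjusted p-values of 0.0630 to 0.135, without both IgG-IFNa 3 and 4 (log2 fold change 0.68, edgeR adjusted p = 0.325) and with the Y-linked covariate (0.67, edgeR adjusted p = 0.225). The list's medians lay between −0.014 and 0.077 on the log2 scale.

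**Figure D4:**
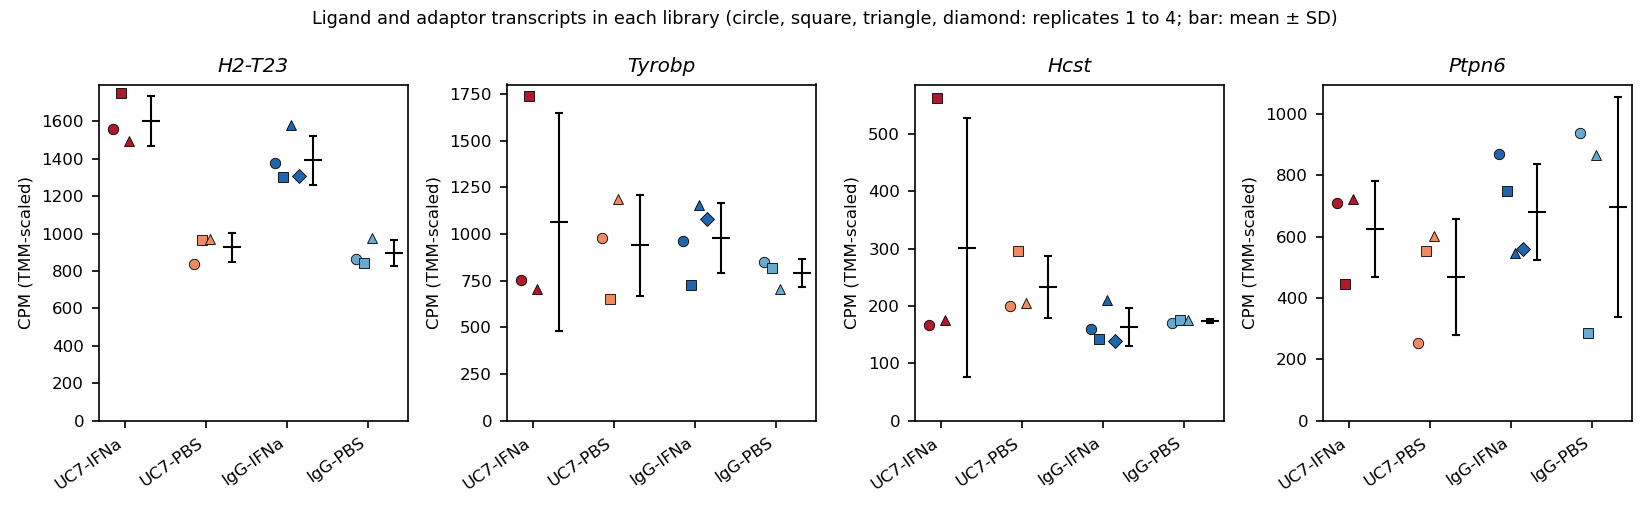
TMM-scaled CPM (y axis, from 0) of H2-T23, Tyrobp, Hcst and Ptpn6 in each library of the 4 groups (x axis), with the mean ± SD beside the points. H2-T23 is at least 1299.8 CPM in all 7 IFNa libraries and at most 974.5 CPM in all 6 PBS libraries, while the groups overlap for Tyrobp and Ptpn6.

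Of 8 listed genes for NKG2D ligands, 3 were in the count table, Ulbp1, H60b and Raet1d, and the others could not be read. All 3 were tested, and 0 passed in any comparison by edgeR or DESeq2, with at most 1 at an unadjusted p under 0.05 in a comparison. Their median log2 fold change was 0.45 in UC7-IFNa against UC7-PBS and 0.22 in UC7-PBS against IgG-PBS. It was −0.15 in UC7-IFNa against IgG-IFNa and 1.06 in IgG-IFNa against IgG-PBS. Among the transcription factors and cytokine receptors linked to these receptors, 0 of 24 passed by edgeR, with 2 to 7 at an unadjusted p under 0.05 per comparison, and DESeq2 called 1, in IgG-IFNa against IgG-PBS. Tbx21, which encodes T-bet, averaged 269 ± 25.3 CPM in UC7-IFNa, 307 ± 24.8 in UC7-PBS, 284 ± 45.1 CPM in IgG-IFNa and 273 ± 6.51 in IgG-PBS (smallest edgeR adjusted p = 0.813). Eomes, its relative in NK cells, was at most 2.00 CPM in any library (smallest adjusted p = 0.868). Il2rb, the beta chain of the receptors for interleukins 2 and 15, averaged 1827 ± 149, 1349 ± 299, 1994 ± 253 and 1303 ± 204 CPM in the same order of groups. Its smallest edgeR adjusted p was 0.138, in IgG-IFNa against IgG-PBS.

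Of 18 tested genes for other lectin-like receptors, 1 passed by edgeR. Of these 18, 4 had an unadjusted p under 0.05 in UC7-IFNa against UC7-PBS, 3 in UC7-PBS against IgG-PBS, 8 in UC7-IFNa against IgG-IFNa and 5 in IgG-IFNa against IgG-PBS, beside 1202, 791, 1138 and 1723 of all 15835 genes. DESeq2 called 1, 0, 2 and 2 of them. Their median log2 fold change was −0.43 in UC7-IFNa against IgG-IFNa, beside 0.011 over all tested genes. Of 17 genes for other activating and inhibitory receptors 0 passed by edgeR, with 2 to 5 at an unadjusted p under 0.05 per comparison and at most 2 called by DESeq2. Cd69, an early activation marker, measured 522, 556, 331 and 331 CPM in IgG-IFNa libraries 1 to 4, against 835, 819 and 746 CPM in IgG-PBS libraries 1 to 3. In UC7-IFNa against UC7-PBS its log2 fold change was −0.77 (SE 0.21, edgeR adjusted p = 0.241), which did not pass. The interaction for Cd69 was 0.11 (SE 0.28). Cd69 fell by 0.88 on the log2 scale in IgG-IFNa against IgG-PBS (SE 0.19, edgeR adjusted p = 0.0427). This call was lost without either of IgG-IFNa libraries 3 and 4, the lowest, without any IgG-PBS library, and without UC7-IFNa 1 or any UC7-PBS library, at adjusted p-values of 0.0508 to 0.171. With both IgG-IFNa 3 and 4 left out it was −0.57 (edgeR adjusted p = 0.500), and with the Y-linked covariate −0.57 (edgeR adjusted p = 0.397). Klri1 and Klri2, the partners of Klre1, were rare, at most 3.53 and 2.29 CPM in any library, and their smallest adjusted p-values were 0.697 and 0.517. Klrb1c, which encodes NK1.1, averaged 15.8 ± 0.670 CPM in UC7-IFNa, 30.0 ± 13.0 in UC7-PBS, 23.5 ± 6.69 CPM in IgG-IFNa and 34.2 ± 7.25 in IgG-PBS, with a smallest edgeR adjusted p of 0.374.

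The genes around the receptors were read in the same way. Within 500 kb of the stretch that holds the 5 members, 26 genes in all were in the table, and 14 besides the members were tested. None of the 14 passed by edgeR in UC7-IFNa against UC7-PBS, where their log2 fold changes ran from −0.94 to 1.25 with a median of −0.17. In UC7-PBS against IgG-PBS they ran from −0.82 to 1.31 with a median of −0.11, and none passed. Cd69, which lies on the Klre1 side with other genes between, was the only neighbour called in any comparison. Klrh1, another lectin-like receptor gene beyond Klrc1, named after its values were seen, had log2 fold changes of −0.09 and −0.10 in these comparisons.

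**Figure D5:**
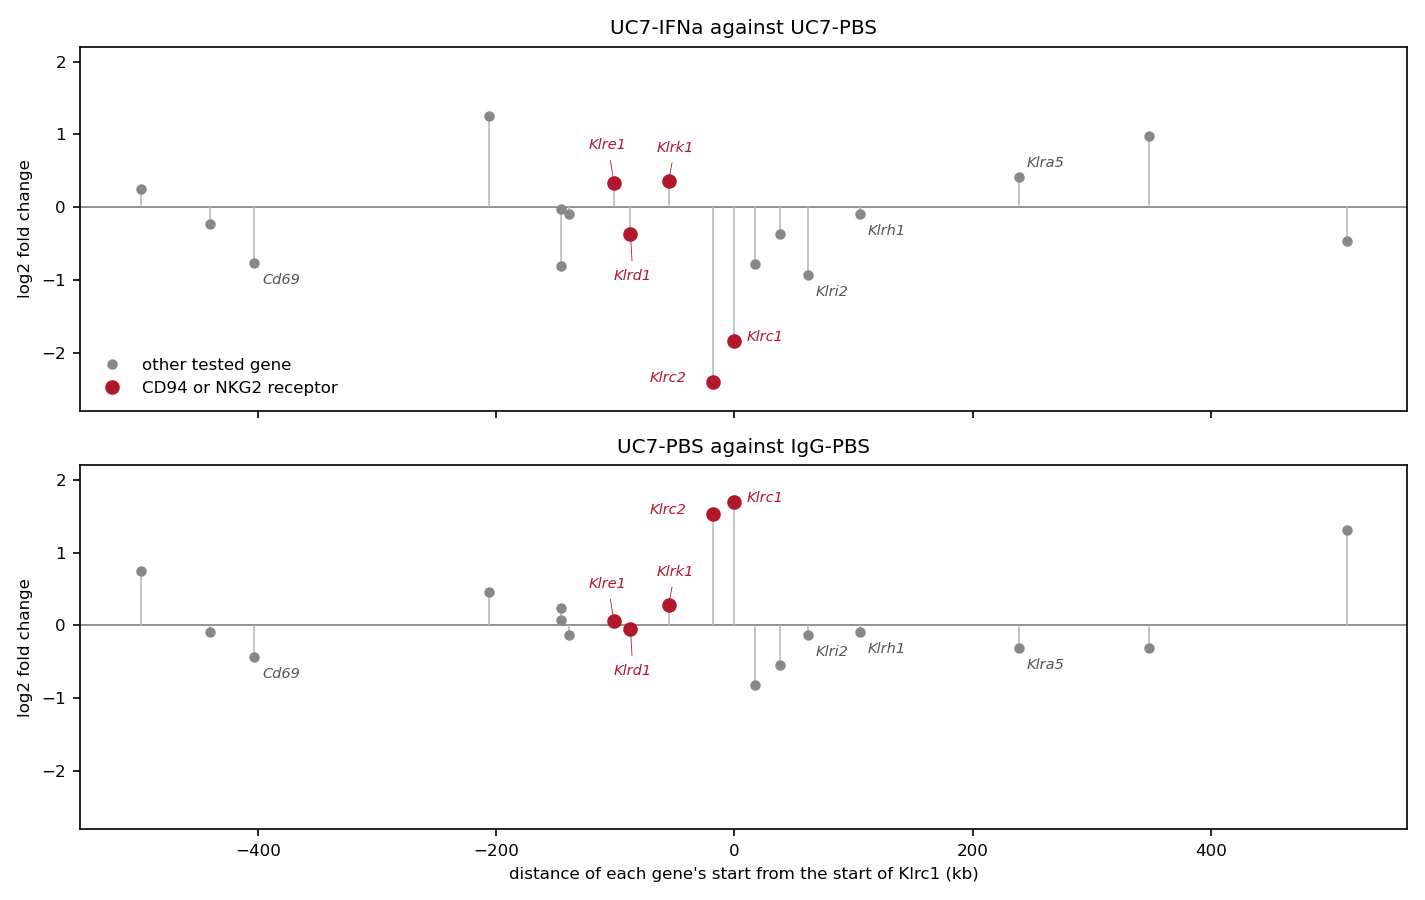
Log2 fold change (y axis) of the 5 receptor genes and 14 other tested genes against the distance in kb of each gene's start from that of Klrc1 (x axis), in UC7-IFNa against UC7-PBS (top) and UC7-PBS against IgG-PBS (bottom). Klrc1 and Klrc2, which lie side by side, have −1.85 and −2.41 in the top panel and 1.69 and 1.53 in the bottom panel, and the other genes lie between −0.94 and 1.31.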

How the data were processed

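The table of raw values deposited by the authors holds estimated counts per gene and library, of which 38.0% were not whole. Build mm39 and the tools STAR 2.7.8a, Partek and DESeq2 are listed in the submitters' processing notes with no role for each. Neither the counting tool nor its strand setting is stated there. The authors also deposited a signal table, normalized counts of 11281 genes, whose library factors served only as an alternative scaling. Counts were rounded and fitted with edgeR 4.0.16 in R 4.3.3: TMM, filterByExpr (minimum count 10), a robust quasi-likelihood fit with 1 coefficient per group over all 13 libraries, Benjamini-Hochberg adjustment over 15835 genes, threshold 0.05, and 95% intervals from the fit. The fit was run on simulated counts with the same spread for every gene and no outlying library. That run does not show how the fit behaves on these data. Log2 CPM for likeness had a prior count of 2. Intervals cover the spread between libraries; reads carry no molecular identifiers.

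The members and the lists were chosen with earlier results of these data known. Genes named are the 5 members and list genes that passed (at most 4 per list and comparison). Named whatever their values are H2-T23, Tyrobp, Hcst, Ptpn6, Klri1, Klri2, Klrb1c, Tbx21, Eomes and Il2rb. Klrc3 was to be named in the same way but has no values in the count table. Of the likeness lists and the neighbours, some were picked after their values were seen. So were Ncr1, Irf8, Klra7, Gzma, Gzmb, Trdc, Trgc1, Trgc2, Trac, Trbc1, Trbc2 and Itgax among the markers, and the 3 tested NKG2D ligand genes. Lists were described by counts and medians, with no set test. Overlap between groups was read only for the genes named, not over all genes, so it is a description throughout. Transcripts were aligned and compared in GENCODE M21 (GRCm38), promoter windows taken from RefSeq (GRCm38.p6), and gene positions are mm39 from the count table. Alternatives were DESeq2 1.42.0, other size factors, no filter, only the groups compared, a replicate block, a Y-linked covariate, and left-out libraries.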

Additional observations from a re-analysis of the deposited data

How the results depend on the processing

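The signs and sides of the threshold of the 10 tested member values held in all but 6 of 220 recomputed values (22 alternatives, 13 of them leaving out 1 library), and 0 of the 220 passed; the smallest adjusted p was 0.1002. The exceptions were small values that turned sign: Klrc2 in UC7-IFNa against IgG-IFNa ran from −0.13 to 0.62 with 1 library left out, Klre1 in that comparison from −0.10 to 0.24, and Klrk1 in IgG-IFNa against IgG-PBS from −0.0595 to 0.39, and −0.26 with IgG-IFNa libraries 1 and 2 left out together. Counts of called genes moved far more, and the cause was not tested. For UC7-IFNa against UC7-PBS the count of 57 became 141 with DESeq2, 22 with only the 2 groups fitted, 34 with the replicate block and 29 to 110 with 1 library left out. For UC7-PBS against IgG-PBS the count of 1 became 69 with DESeq2, 0 with no filter, 19 with only the 2 groups, 5 without IgG-IFNa 1 and 2, 5 without IgG-IFNa 3 and 4, and 0 to 4 with 1 library left out. For UC7-IFNa against IgG-IFNa the count of 12 became 120 with DESeq2, 0 with only the 2 groups, 1 with the replicate block, 5 with the Y-linked covariate, 3 without IgG-IFNa 1 and 2, 6 without IgG-IFNa 3 and 4, and 0 to 52 with 1 library left out. For IgG-IFNa against IgG-PBS the count of 131 became 406 with DESeq2, 343 with only the 2 groups, 27 with the replicate block, 23 with the Y-linked covariate, 21 without IgG-IFNa 3 and 4, and 24 to 430 with 1 library left out. The replicate numbers were not shown to pair the libraries: same-numbered libraries of different groups had correlations of −0.21 to 0.13 in their deviations, 2 of 18 over 0.1, and 1 of 13 libraries correlated best with its own number. With that block the 10 tested member values kept their direction and none passed, and the calls of H2-T23 in both IFNa comparisons, Sh2d2a and Cd69 were lost. The interaction of Klre1, not tested, went from −0.0021 to 0.051. Over the 22 alternatives H2-T23 kept its call in 16 (UC7) and 9 (IgG), Sh2d2a in 14 and Cd69 in 10. The depth of Klrc2, 12.3 estimated counts in its lowest library, limits its ratios.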
